A study of Mus musculus with 12 samples.

Results

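The genes described here, 39 of the 55450 in the count table, serve the uptake of fatty acids and their oxidation, mostly in mitochondria. They were chosen by function as a list of mouse symbols, covering uptake (5 genes), activation to acyl-CoA (5), the carnitine shuttle (4), the beta-oxidation cycle (10), auxiliary enzymes for unsaturated chains (3), electron transfer (3), thioesterases (2), malonyl-CoA and fuel switches (5) and nuclear receptors (2). All 39 matched an Ensembl gene and all passed the filter on low counts. Their RNA was measured in tibialis anterior (TA) muscle of WT mice of the 129Pas background, with no treatment in any group. The mice were late embryos (E18.5) or aged 2 or 7 weeks (wks), with 4 mice each and 12 RNAseq libraries in all. The libraries were made from polyadenylated RNA of muscle pieces, so every cell type in a piece contributes. Apart from exact permutation tests, the p-values below rest on the spread between mice of the same age, shared over the ages in a fit. Fits that leave out E18.5 replicates 3 and 4 hold 2 mice of that age.

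Fatty acids reach the muscle fiber from lipoproteins and albumin, are bound by carriers, and are activated to acyl-CoA before the carnitine shuttle brings them into the mitochondrial matrix. There the beta-oxidation cycle shortens the chain step by step, passing electrons to the respiratory chain and acetyl-CoA to the TCA cycle. Malonyl-CoA inhibits entry into the shuttle, pyruvate dehydrogenase kinases limit the use of glucose, and the PPAR nuclear receptors regulate many genes of the pathway.

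RefSeq windows around gene starts, from 250 bases before to 50 after the start (GRCm38.p6), were found for 33 of the 39 genes, in 39 windows of 300 bases. The bases before the start are shown for the members with the largest changes after birth that hold a nuclear receptor motif, *Acsl6* (1 of its 3 windows, chr11:54303574-54303823, plus strand, capitals marking TCAAGGTCA on the minus strand) and *Ucp3* (chr7:100472741-100472990, plus strand, capitals marking AGGTCA). The 228 bases that the windows of *Hadha* and *Hadhb* share are also shown, because these genes of the trifunctional protein start head to head and are read in opposite directions from this stretch (chr5:30155003-30155230, plus strand, the direction of *Hadhb*, capitals marking GGGCGG).
Acsl6: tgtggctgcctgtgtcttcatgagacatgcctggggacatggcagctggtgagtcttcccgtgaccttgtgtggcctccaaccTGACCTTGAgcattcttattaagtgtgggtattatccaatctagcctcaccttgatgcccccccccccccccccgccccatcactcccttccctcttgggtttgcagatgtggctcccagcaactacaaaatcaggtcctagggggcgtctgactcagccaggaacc
Ucp3: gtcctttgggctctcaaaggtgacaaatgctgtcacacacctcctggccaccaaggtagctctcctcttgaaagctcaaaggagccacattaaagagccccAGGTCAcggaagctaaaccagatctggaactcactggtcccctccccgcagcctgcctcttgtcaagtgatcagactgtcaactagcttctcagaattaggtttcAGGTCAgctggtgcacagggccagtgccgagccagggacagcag
Hadha and Hadhb: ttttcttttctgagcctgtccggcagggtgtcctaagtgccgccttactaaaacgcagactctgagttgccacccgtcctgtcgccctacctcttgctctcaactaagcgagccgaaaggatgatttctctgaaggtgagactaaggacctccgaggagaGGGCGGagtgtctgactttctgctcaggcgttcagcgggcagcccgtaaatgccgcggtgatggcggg
The motifs were searched on both strands. TCAAGGTCA, an extended site of estrogen-related receptors, was found in 1 of the 39 windows (2.56%) and in 0.423% of all 32851 mouse windows. AGGTCA, the core nuclear receptor motif contained in it, was found in 8 windows (20.5%) against 16.3% of all. The direct repeat of AGGTCA with 1 base between, which PPARs bind, was found in 0 windows against 0.0396% of all. Of motifs outside this family, the GC box GGGCGG was found in 25 windows (64.1%) against 35.7%, and the E-box CAGCTG in 10 (25.6%) against 16.3%. These are matches of letters and not measured binding sites.

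Library totals ranged from 63018968 to 123449246 counts, and each of the 39 genes had at least 10 counts in every library (lowest, 50 for *Cpt1b*). Values are given as CPM, counts relative to library size, after TMM scaling, which lines up the bulk of genes between libraries. The 20 most abundant genes took 8.38% to 11.3% of counts at E18.5, 32.2% to 35.3% at 2 wks, then 36.3% to 37.7% at 7 wks. Scaling to the total count shifted the median of all genes between E18.5 and 2 wks from -0.09 to -1.02 on the log2 scale. The part of the 20 genes in this shift was not tested. Muscle fiber markers (9 genes, summed) were present in every library, at 6505 to 14428 CPM at E18.5, 129966 to 173165 at 2 wks, then 162014 to 198992 at 7 wks. The sum joins myosin genes that moved apart. Mean *Myh4* went from 33.5 CPM at E18.5 to 38603 at 2 wks, whereas mean *Myh7* fell from 144 to 15.4, then to 4.29 at 7 wks. In such bulk samples, fewer cells of a type and less RNA per cell cannot be told apart.

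The E18.5 libraries fell into pairs in their adipocyte markers, and most comparisons below use these libraries. All 6 white adipocyte markers were higher in E18.5 replicates 3 and 4 than in any other library, and their sum was 13.1, 17.4, 447 and 371 CPM in E18.5 replicates 1 to 4, 3.07 to 9.04 at 2 wks, then 3.36 to 7 at 7 wks. The sum of 4 brown adipocyte markers was 6.29, 9.44, 384 and 1315 CPM at E18.5, 12.2 to 25.7 at 2 wks, then 5.98 to 12.4 at 7 wks. Of these, *Ucp1*, *Cidea* and *Elovl3* were higher in E18.5 replicates 3 and 4 than in any other library. *Prdm16* was not, at 2.74, 4.69, 6.13 and 8.66 CPM at E18.5, 7.12 to 9.61 at 2 wks, then 4.67 to 10.1 at 7 wks. *Ucp1*, the uncoupling protein of brown fat, was at 0.305, 0, 224 and 923 CPM in the E18.5 libraries, and its highest value elsewhere was 11.6 in 2-wk replicate 2. Brown fat oxidizes fatty acids with the same mitochondrial enzymes as muscle.

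**Figure D1:**
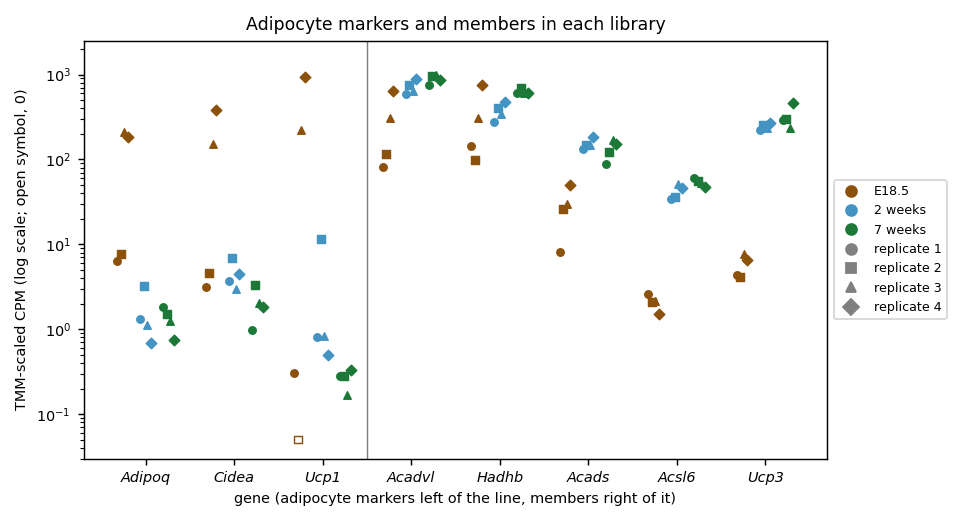
TMM-scaled CPM (log axis) of 3 adipocyte markers and 5 fatty acid genes in each of the 12 libraries, colored by age and with a symbol for each replicate number. E18.5 replicates 3 and 4 stand above replicates 1 and 2 for *Adipoq*, *Cidea*, *Ucp1*, *Acadvl*, *Hadhb* and *Acads*, whereas all 4 E18.5 libraries lie together and below later ages for *Acsl6* (1.51 to 2.59 CPM).

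The fatty acid genes followed the same division. In 28 of the 39, E18.5 replicates 3 and 4 both exceeded replicates 1 and 2, as did 15.5% of all genes tested. The 39 genes together took 0.432%, 0.387%, 0.98% and 1.52% of counts in the E18.5 libraries, 0.735% to 0.978% at 2 wks, then 0.814% to 0.948% at 7 wks. Over the 39 genes, the median ratio of the highest to the lowest library was 4.53 at E18.5, 1.42 at 2 wks, then 1.61 at 7 wks, against 1.63, 1.3 and 1.47 over genes above 1 CPM in every library of the age. The part of adipocytes in the E18.5 levels was not tested, so counts against E18.5 are given with and without replicates 3 and 4, an alternative added after seeing the data, and so are single genes where the call or the size depended on them. In the 28 genes, leaving out these replicates lowers the E18.5 level by construction. Larger rises in those fits are therefore not separate evidence.

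**Figure D2:**
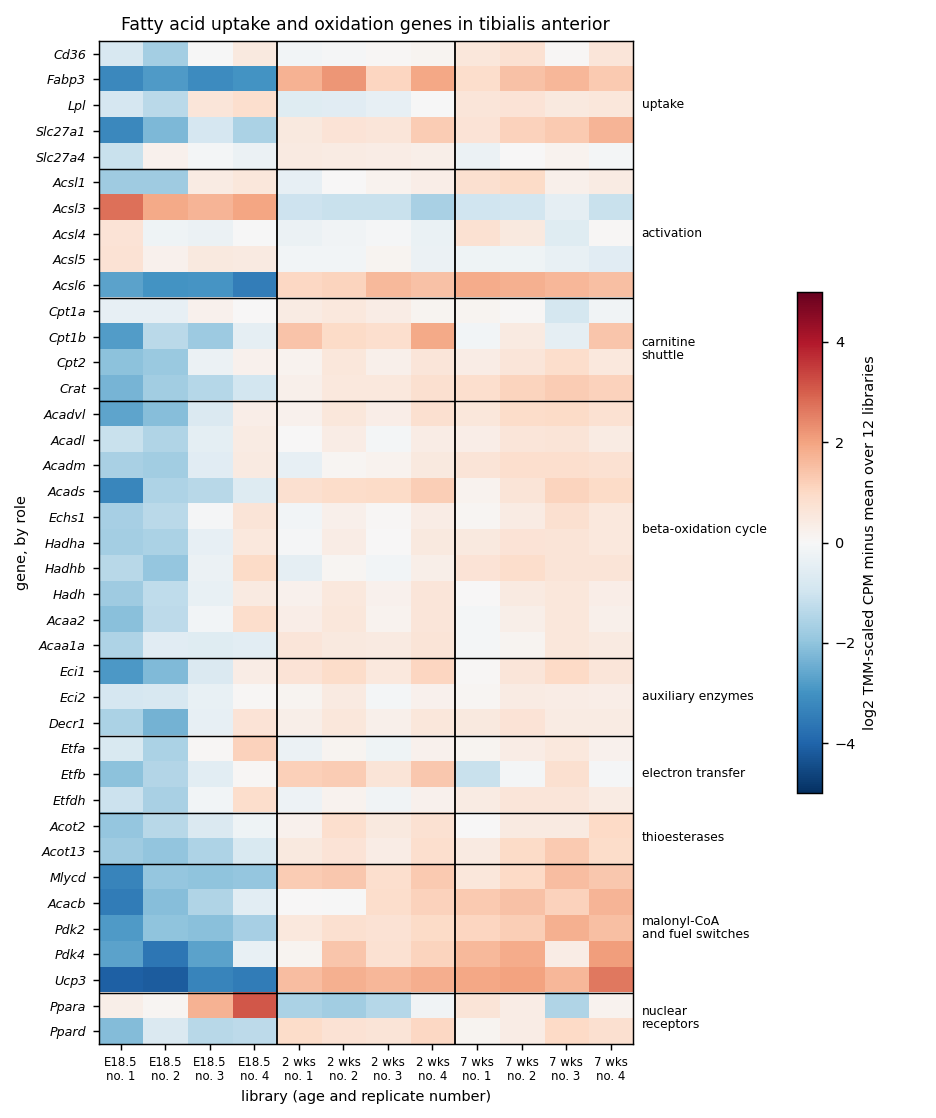
Heat map of the 39 genes (rows, grouped by role) in the 12 libraries (columns), as log2 TMM-scaled CPM minus the mean of the gene over all libraries. *Ucp3*, *Acsl6* and *Fabp3* are low in all 4 E18.5 libraries and *Acsl3* is high there, whereas most beta-oxidation genes are higher in E18.5 replicates 3 and 4 than in replicates 1 and 2.

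Between E18.5 and 2 wks, fatty acid genes mostly rose, led by *Ucp3*, *Fabp3* and *Acsl6*, while *Acsl3*, *Acsl5* and *Ppara* fell. Of the 39 genes, 22 rose and 3 fell (edgeR quasi-likelihood test with Benjamini-Hochberg adjustment over all genes, threshold 0.05), which is 25 in all where 65.7% of all genes tested were called, 31.5% as higher and 34.2% as lower. The median log2 change was 0.91 over the 39 genes and -0.09 over all genes. With E18.5 replicates 3 and 4 left out, 34 rose and 3 fell where 58% of all genes were called (27.9% as higher, 30.1% as lower), and the median was 2.09 against -0.07. With scaling to the total count, 13 rose and 6 fell where 75.1% of all genes were called (13.2% as higher, 61.9% as lower), and the medians were -0.02 and -1.02. With both changes, 27 rose and 4 fell where 67.8% were called (12.2% as higher, 55.6% as lower). With only the 8 libraries of E18.5 and 2 wks in the fit, 23 genes were called where 65.3% of all genes were. Under both scalings and with or without the 2 libraries, the same 13 genes rose, namely *Fabp3*, *Slc27a1*, *Acsl6*, *Cpt1b*, *Crat*, *Acads*, *Acot13*, *Mlycd*, *Acacb*, *Pdk2*, *Pdk4*, *Ucp3* and *Ppard*, and the same 3 fell.

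**Figure D3:**
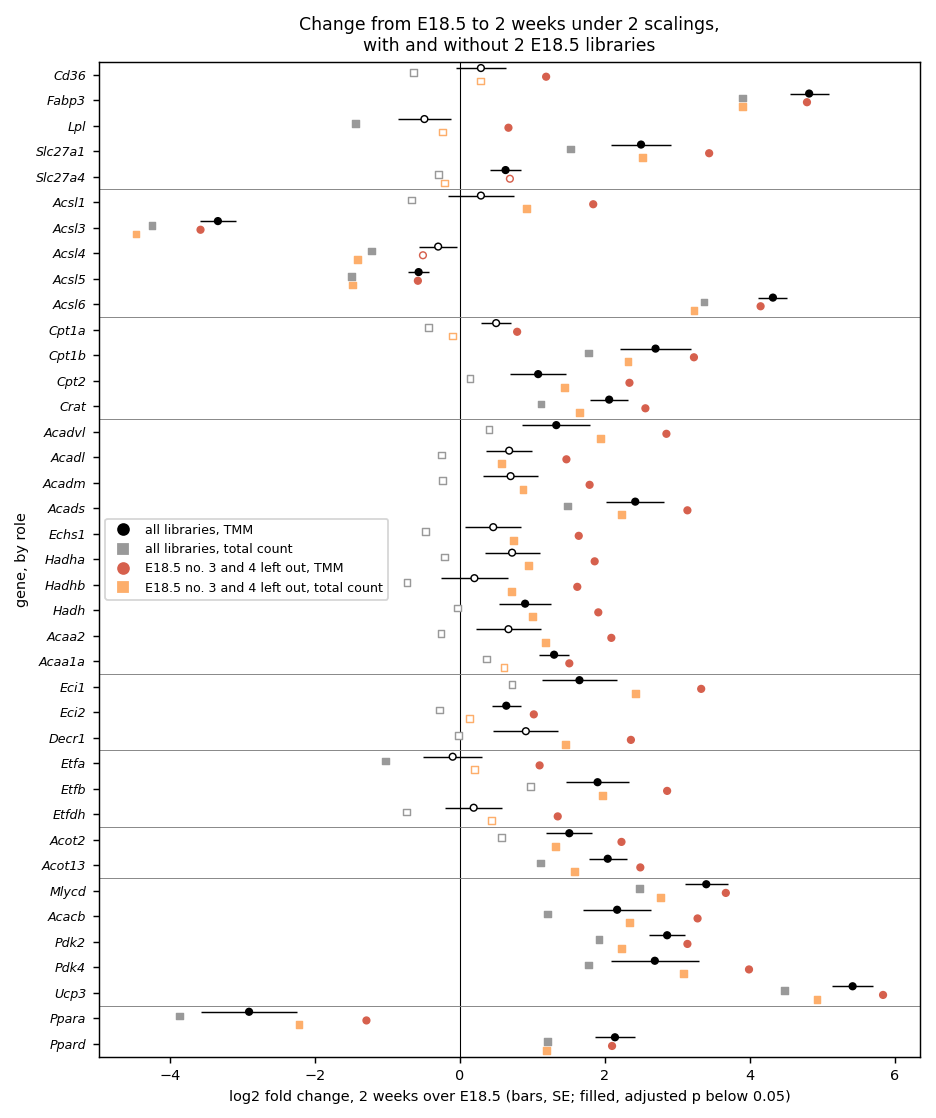
Log2 fold change of each gene from E18.5 to 2 wks under TMM scaling (circles) and total count scaling (squares), with all libraries (black and gray) and without E18.5 replicates 3 and 4 (red and orange). Bars are the SE of the edgeR fit with all libraries and filled symbols have an adjusted p below 0.05. Beta-oxidation genes such as *Hadhb* (0.20 with all libraries, 1.62 without the 2) shift to the right without the 2 libraries, whereas *Fabp3* (4.82 and 4.79) hardly moves.

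Among the uptake genes, 3 of 5 rose between E18.5 and 2 wks. *Fabp3*, the fatty acid binding protein of heart and muscle cytosol, was at 27.3, 36.1, 28.9 and 32.1 CPM at E18.5, at 844, 1165, 539 and 962 at 2 wks, then at 465, 695, 806 and 625 at 7 wks. The E18.5 libraries were all far below the later ones, and those with adipocyte markers lay between the other E18.5 libraries. It rose by 4.82 ± 0.27 on the log2 scale (SE; edgeR, adjusted p = 1.47e-08). On the opposite strand, *Zcchc17* overlaps 37% of its exon bases, and the strand setting of the counting was not given in the sources used here.

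*Slc27a1*, a fatty acid transport protein of muscle, was at 4.64, 9.01, 24.1 and 14.5 CPM at E18.5, 59.7, 68.2, 65.5 and 103 at 2 wks, then 68.4, 95.7, 105 and 141 at 7 wks. All libraries after birth exceeded all at E18.5, and the gene rose by 2.50 ± 0.41 (edgeR, adjusted p = 0.000115). *Slc27a4*, the broadly expressed paralog, rose by 0.63 ± 0.22 (adjusted p = 0.0204), a call that ended under total count scaling, where its log2 change was -0.30, and without E18.5 replicates 3 and 4 (0.69, adjusted p = 0.0562). *Cd36*, the membrane fatty acid translocase, had values of 318, 172, 550 and 777 CPM at E18.5 and 507 to 614 at 2 wks (log2 change 0.29, adjusted p = 0.463). *Lpl*, the lipase that frees fatty acids from lipoproteins, was at 311, 216, 849 and 982 CPM at E18.5 and 362 to 539 at 2 wks (log2 change -0.49, adjusted p = 0.261). For both genes the 2-wk libraries lay between the E18.5 replicates 1 and 2 and the highest E18.5 replicate, and without replicates 3 and 4 they rose by 1.19 and 0.67 (adjusted p = 0.00298 and 0.0224).

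The acyl-CoA synthetases, which activate long-chain fatty acids, moved apart. *Acsl6* was at 2.59, 2.11, 2.16 and 1.51 CPM at E18.5, 33.9, 36.1, 51 and 45.8 at 2 wks, then 60.4, 56.3, 52.2 and 47 at 7 wks. Every later library exceeded every E18.5 library, with a rise of 4.32 ± 0.20 by 2 wks (edgeR, adjusted p = 4.41e-09). *Acsl3*, a synthetase of the endoplasmic reticulum and lipid droplets, was at 214, 121, 105 and 126 CPM at E18.5, 15.8, 14.9, 15 and 10.4 at 2 wks, then 16.3, 17, 23.4 and 14.9 at 7 wks. The E18.5 libraries were all above the later ones, and it fell by 3.34 on the log2 scale (SE 0.25, adjusted p = 1.76e-07). *Acsl5* fell by 0.57 (SE 0.15, adjusted p = 0.00421), and *Zdhhc6* overlaps 37.3% of its exon bases on the opposite strand. *Acsl4*, which prefers arachidonic acid, had a log2 change of -0.30 (adjusted p = 0.326).

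*Acsl1*, the main synthetase of mature muscle and fat, was at 98.5, 97.2, 449 and 502 CPM at E18.5, 249.9, 344, 383 and 426 at 2 wks, then 587, 653, 399.5 and 452 at 7 wks. E18.5 replicates 3 and 4 were above all 2-wk libraries and replicates 1 and 2 below them. With all libraries the log2 change to 2 wks was 0.29 ± 0.46 (edgeR, adjusted p = 0.588), and without replicates 3 and 4 it was 1.84 (adjusted p = 0.000137).

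In the carnitine shuttle, 3 of 4 genes rose by 2 wks. *Crat*, which exchanges acetyl groups between CoA and carnitine, was at 80.8, 121, 153 and 215 CPM at E18.5, 487, 586, 582 and 721 at 2 wks, then 724, 881, 976 and 898 at 7 wks. The ages E18.5 and 2 wks did not overlap, and *Crat* rose by 2.06 ± 0.26 (edgeR, adjusted p = 1.32e-05). *Cpt2*, the transferase of the inner membrane, rose by 1.08 ± 0.39 (adjusted p = 0.0259), by 2.34 without E18.5 replicates 3 and 4, and was not called under total count scaling (0.14, adjusted p = 0.745).

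*Cpt1b*, the muscle form of the outer membrane transferase, was at 0.347, 0.944, 0.688 and 1.76 CPM at E18.5, 6.51, 4.6, 4.35 and 8.94 at 2 wks, then 2.17, 3.31, 1.78 and 6.22 at 7 wks. It rose by 2.70 ± 0.49 by 2 wks (edgeR, adjusted p = 0.000285), with no overlap between those ages. Its level is uncertain, because the read-through gene *Gm44502* overlaps 68.5% of its exon bases on the same strand and was listed at 0 in every library, and how the counting treated shared reads was not given in the sources used here. *Cpt1a*, the liver form, was at 17.3, 17.2, 26.6 and 23.4 CPM at E18.5, 25.6 to 33.1 at 2 wks, then 12.4 to 25.3 at 7 wks, with a log2 change to 2 wks of 0.50 ± 0.21 (adjusted p = 0.0525), or 0.79 without E18.5 replicates 3 and 4 (adjusted p = 0.018).

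In the beta-oxidation cycle, 4 of 10 genes rose by 2 wks with all libraries, and 10 of 10 without E18.5 replicates 3 and 4. In all of them but *Acaa1a*, these replicates were the highest at E18.5, so larger changes without them follow from the choice. The 4 were *Acads*, *Acadvl*, *Hadh* and *Acaa1a*. *Acads*, the dehydrogenase of short chains, was at 8.14, 26.3, 29.8 and 49.9 CPM at E18.5, 133, 146, 148 and 182 at 2 wks, then 88.3, 121, 168 and 151 at 7 wks. No E18.5 library reached any later library, and *Acads* rose by 2.42 ± 0.40 (edgeR, adjusted p = 0.000129). *Acadvl*, the dehydrogenase of very long chains, rose by 1.33 ± 0.47 (adjusted p = 0.0228), although E18.5 replicate 4 at 633 CPM lay within the 2-wk range of 592 to 875 and the other E18.5 libraries were at 82.3, 116 and 304. On the opposite strand, *Dvl2* overlaps 38.2% of the exon bases of *Acadvl*. *Hadh*, the short-chain hydroxyacyl dehydrogenase, rose by 0.90 ± 0.36 (adjusted p = 0.0387). *Acaa1a*, the thiolase of peroxisomes rather than mitochondria, rose by 1.30 ± 0.21 (adjusted p = 0.000132) and shares sequence with its close paralog *Acaa1b*, between which reads may be split. Under total count scaling the calls of *Acadvl*, *Hadh* and *Acaa1a* ended, and without E18.5 replicates 3 and 4 *Acadvl* and *Hadh* rose by 2.85 and 1.91.

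The remaining 6 genes of the cycle were not called with all libraries. *Acadm* and *Acadl*, dehydrogenases of medium and long chains, had log2 changes of 0.70 ± 0.38 and 0.68 ± 0.32 (edgeR, adjusted p = 0.122 and 0.0732). *Hadhb*, the thiolase subunit of the trifunctional protein, was at 144, 98.9, 308 and 746 CPM at E18.5, 277, 400.3, 345 and 470.3 at 2 wks, then 605, 691, 599 and 599 at 7 wks. Its partner *Hadha* was at 144, 159, 352 and 679 CPM at E18.5, 458, 602, 484 and 654 at 2 wks, then 657, 756, 743 and 683 at 7 wks. In both, E18.5 replicate 4 was above all 2-wk libraries and replicates 1 and 2 were below them. Without replicates 3 and 4, *Acadl*, *Acadm*, *Echs1*, *Hadha*, *Hadhb* and the thiolase *Acaa2* rose by 1.47, 1.79, 1.64, 1.86, 1.62 and 2.09, and each was also called under total count scaling of those libraries, at 0.57, 0.87, 0.74, 0.95, 0.71 and 1.18.

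Of the auxiliary enzymes, which prepare double bonds for the cycle, *Eci1* was at 9.48, 15.1, 42.6 and 89.9 CPM at E18.5, 114, 133, 99.9 and 146 at 2 wks, then 73.6, 107, 139.6 and 108 at 7 wks. E18.5 was below 2 wks in every library, and *Eci1* rose by 1.65 ± 0.52 (edgeR, adjusted p = 0.0119). The related isomerase *Eci2* rose by 0.64 ± 0.20 (adjusted p = 0.0111) and the reductase *Decr1* had a log2 change of 0.91 ± 0.45 (adjusted p = 0.0931). *Eci1* and *Eci2* were not called under total count scaling. Without E18.5 replicates 3 and 4, *Eci1*, *Eci2* and *Decr1* rose by 3.33, 1.02 and 2.36 (adjusted p = 6.02e-06, 0.000694 and 1.11e-05).

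The electron transfer flavoprotein and its dehydrogenase carry electrons from acyl-CoA dehydrogenases to ubiquinone. *Etfa* had values of 161, 91.9, 289.5 and 617 CPM at E18.5, 227, 301, 236 and 319 at 2 wks, then 303, 356, 394 and 320.4 at 7 wks. The 2-wk libraries lay inside the E18.5 range (log2 change -0.10 ± 0.41, edgeR, adjusted p = 0.844). *Etfb*, the other subunit, was at 0.915, 1.37, 2.62 and 4 CPM at E18.5, 8.72, 9.09, 5.86 and 9.63 at 2 wks, then 1.75, 3.51, 6.62 and 3.68 at 7 wks, and rose by 1.90 ± 0.44 by 2 wks (adjusted p = 0.00184). This call ended under total count scaling (0.97, adjusted p = 0.0541), and the rise was 2.86 without E18.5 replicates 3 and 4. The low level of *Etfb* is uncertain, since *Etfbl* overlaps 39.6% of its exon bases on the same strand and averaged 0.0833 counts per library. *Etfdh* had a log2 change of 0.19 ± 0.39 (adjusted p = 0.685), with E18.5 values of 92.4, 63.4, 179.8 and 359.8 CPM and 2-wk values of 164 to 229. Without E18.5 replicates 3 and 4, *Etfa* and *Etfdh* rose by 1.10 and 1.35 (adjusted p = 0.00278 and 0.000309).

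Both thioesterases, which release free fatty acids from acyl-CoA, rose by 2 wks. *Acot13* was at 20.8, 18, 24.6 and 42.6 CPM at E18.5, 99.8, 114, 92.8 and 129 at 2 wks, then 98.2, 139, 177 and 134 at 7 wks. The later libraries all exceeded E18.5, with a rise of 2.04 ± 0.26 (edgeR, adjusted p = 1.59e-05), and *BC005537* overlaps 54.4% of its exon bases on the opposite strand. *Acot2*, the thioesterase of the mitochondrial matrix, rose by 1.51 ± 0.32 (adjusted p = 0.00101) from 1.3 to 4.26 CPM at E18.5 to 5.77 to 8.73 at 2 wks, a call that ended under total count scaling, and it has a near-identical paralog, *Acot1*.

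All 5 genes of malonyl-CoA turnover and fuel choice rose by 2 wks, under both scalings and with or without the 2 libraries. *Ucp3*, a mitochondrial carrier of muscle linked to fatty acid use, was at 4.37, 4.17, 7.69 and 6.57 CPM at E18.5, 219.6, 255, 236 and 266 at 2 wks, then 288, 302, 237 and 467 at 7 wks. Every later library was far above every E18.5 library, and the rise of 5.42 ± 0.28 (edgeR, adjusted p = 9.36e-09) was the largest among the 39 genes with all libraries under TMM scaling. *Mlycd*, which degrades malonyl-CoA, was at 3.76, 9.47, 8.97 and 9.64 CPM at E18.5 and 65.6 to 92.9 at 2 wks, a rise of 3.40 ± 0.30 (adjusted p = 7.26e-07). *Acacb*, which makes malonyl-CoA at the mitochondrion, was at 14.9, 38.3, 59.6 and 117 CPM at E18.5, 173, 168, 314 and 379 at 2 wks, then 421, 462, 371 and 543 at 7 wks, and rose by 2.17 ± 0.47 (adjusted p = 0.00117), or by 3.28 without E18.5 replicates 3 and 4. The gene that makes malonyl-CoA and the gene that removes it thus rose over the same interval.

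The pyruvate dehydrogenase kinases hold back glucose oxidation. *Pdk2* was at 40, 69.8, 67.3 and 90.2 CPM at E18.5, 414, 498, 467 and 561 at 2 wks, then 598, 664, 981 and 809 at 7 wks. The 3 ages did not overlap, and it rose by 2.86 ± 0.25 by 2 wks (edgeR, adjusted p = 6.27e-07). *Pdk4*, the form induced by fasting, was at 65.5, 34.8, 66.7 and 328 CPM at E18.5, 468, 1107, 715 and 907 at 2 wks, then 1297, 1512, 548 and 1819 at 7 wks. It rose by 2.69 ± 0.61 (adjusted p = 0.00158) with no overlap between E18.5 and 2 wks, while 7-wk replicate 3 fell within the 2-wk range.

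The nuclear receptors moved in opposite directions. *Ppard* was at 4.56, 12.4, 7.81 and 8.31 CPM at E18.5, 38.4, 34.2, 31.7 and 41.9 at 2 wks, then 22.7, 26.2, 41.1 and 35.7 at 7 wks, with no overlap between E18.5 and later ages and a rise of 2.14 ± 0.27 by 2 wks (edgeR, adjusted p = 1.43e-05). *Ppara* was at 11.1, 9.46, 30 and 76.9 CPM at E18.5, 3.02, 2.67, 3.31 and 7.89 at 2 wks, then 14.1, 11.5, 3.14 and 10.2 at 7 wks. Its 2-wk libraries were below all at E18.5 and it fell by 2.91 (SE 0.66, adjusted p = 0.00146), or by 1.29 without E18.5 replicates 3 and 4 (adjusted p = 0.0411). *Cdpf1* overlaps 27.4% of its exon bases on the opposite strand.

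Between 2 and 7 wks, the number of genes called depended on the libraries in the fit. With all 12 libraries *Pdk2* alone was called, with a further rise of 0.65 ± 0.23 (edgeR, adjusted p = 0.0489), where 27.5% of all genes tested were called (13.5% as higher, 13.9% as lower). This call lay at the threshold. It was not made under total count scaling (log2 change 0.31, adjusted p = 0.305), and with each library left out in turn the adjusted p ranged from 0.0156 to 0.142, below the threshold without E18.5 replicate 1, E18.5 replicate 4 or 7-wk replicate 1 and above it without any of the other 9. The median log2 change was 0.33 over the 39 genes and -0.03 over all genes. Under total count scaling 0 genes rose and 6 fell, namely *Fabp3*, *Slc27a4*, *Acsl5*, *Cpt1a*, *Acaa1a* and *Etfb*, where 32.9% of all genes were called (4.92% as higher, 28% as lower). Without E18.5 replicates 3 and 4, 6 rose and 1 fell where 25.8% were called, and with total count scaling as well 1 rose and 7 fell where 30.6% were (4.72% as higher, 25.9% as lower).

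The spread of the E18.5 libraries entered the test of this later interval through the shared fit. With only the 8 libraries of 2 and 7 wks, 11 of the 39 genes were called where 36.5% of all genes were, 8 as higher (*Cd36*, *Lpl*, *Crat*, *Acadm*, *Hadhb*, *Etfdh*, *Acacb* and *Pdk2*) and 3 as lower (*Slc27a4*, *Cpt1a* and *Etfb*). The libraries of the 2 ages did not overlap, with 7 wks higher, in 7 genes (*Lpl*, *Crat*, *Acadm*, *Hadha*, *Hadhb*, *Etfdh* and *Pdk2*), as in 17.3% of all genes, and with 7 wks lower in 2 (*Slc27a4* and *Cpt1a*), as in 16.4%. *Lpl*, from the first of these sets, was at 362, 368, 411 and 539 CPM at 2 wks, then 845, 886, 772 and 820.3 at 7 wks. Its log2 change was 0.98 ± 0.38 and was not called with all libraries (edgeR, adjusted p = 0.0665). *Acadm* went from 337, 473, 506 and 618 CPM to 688, 789, 791 and 746 (0.64 ± 0.38, adjusted p = 0.232).

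Over the whole period from E18.5 to 7 wks, 24 genes rose and 3 fell, where 71.4% of all genes tested were called (34.3% as higher, 37.1% as lower). This comparison shares its libraries with the other comparisons. The largest rises were those of *Ucp3* (5.83 ± 0.28), *Acsl6* (4.69 ± 0.21) and *Fabp3* (4.38 ± 0.26), and *Acsl3*, *Ppara* and *Acsl5* fell by 2.99, 1.71 and 0.81 on the log2 scale (edgeR, adjusted p = 1.58e-07, 0.0244 and 0.000249). Without E18.5 replicates 3 and 4, 33 rose and 2 fell where 64.6% of all genes were called, and *Ppara* was no longer called (-0.08, adjusted p = 0.894). Under total count scaling 12 rose and 8 fell, where 80.9% were called (11.9% as higher, 69% as lower), and with both changes 25 rose and 6 fell, where 75.2% were called (11.4% as higher, 63.9% as lower). With only the libraries of these 2 ages in the fit 23 were called, where 68.9% of all genes were. *Cd36*, *Acadl*, *Acadm* and *Hadha*, not called at 2 wks with all libraries, had risen by 0.82, 0.99, 1.34 and 1.09 at 7 wks (adjusted p = 0.046, 0.0122, 0.00674 and 0.0205), calls that ended under total count scaling (-0.46, -0.29, 0.06 and -0.19). Without E18.5 replicates 3 and 4 their rises were 1.71, 1.78, 2.43 and 2.23.

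The change before 2 wks was tested against the change after it as a contrast of its own. The 2-wk libraries enter both changes with opposite signs, and the 2 intervals differ in length. It differed in 18 genes, 16 with the greater signed change in the earlier interval and 2 with the smaller (*Acsl3* and *Ppara*), where 38.4% of all genes tested were called (21.6% and 16.8%). *Fabp3* (5.26 ± 0.38), *Ucp3* (5.01 ± 0.38) and *Acsl6* (3.95 ± 0.30) had the greatest differences among those that rose earlier (edgeR, adjusted p = 9.72e-07, 1.38e-06 and 1.21e-06). Without E18.5 replicates 3 and 4, 31 genes differed, 29 of them with the greater change in the earlier interval, where 33% of all genes were called (18.9% with the greater and 14.2% with the smaller change). Under total count scaling 16 differed where 43.7% were called (12.1% with the greater and 31.7% with the smaller change). Those with the smaller change were *Lpl*, *Acsl3*, *Acsl4*, *Acsl5* and *Ppara*. With total count scaling and without E18.5 replicates 3 and 4, 28 differed, 5 of them with the smaller change, where 38.3% were called (11.2% and 27.1%).

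Ratios of related genes within a library do not depend on the scaling. Of 14 pairs, 9 changed their ratio between E18.5 and 2 wks (two-sided exact permutation test of mean log2 ratio over 70 regroupings, adjusted p = 0.0444 for each, with 0.0286 the smallest p that the design allows), 0 between 2 and 7 wks (2 at an unadjusted p below 0.05) and 0 over the whole period, where 8 pairs had an exact permutation p of 0.0286 and an adjusted p of 0.05, at the threshold and not below it. Ratios are per kb of transcript length here. The ratio of *Cpt1b* to *Cpt1a* was 0.0433, 0.119, 0.0559 and 0.162 at E18.5 and 0.454, 0.3, 0.313 and 0.755 at 2 wks, so that the liver form stayed ahead of the muscle form in every library, subject to the overlap of *Cpt1b* given above. The ratio of *Acacb*, the carboxylase of oxidative tissue, to *Acaca*, that of fat synthesis, was 0.68, 1.82, 1.2 and 2.68 at E18.5, 21.4 to 35.6 at 2 wks, then 25.7 to 39.4 at 7 wks. *Acaca* itself was at 23, 22.1, 52.2 and 45.7 CPM at E18.5 and 7.27 to 11.1 at 2 wks.

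*Slc27a1* to *Slc27a4* moved from 0.685, 0.54, 1.77 and 1.21 at E18.5 to 2.99, 3.5, 3.5 and 5.81 at 2 wks, with no overlap between the ages. *Fabp3* to *Fabp4*, the binding protein of adipocytes and endothelium, moved from 0.206, 0.366, 0.031 and 0.0226 to 3.13, 4.55, 1.86 and 3.81. *Fabp4* was at 219.7, 163, 1543 and 2342 CPM in the E18.5 libraries and 417 to 480.3 at 2 wks. The ratio of *Fabp3* to *Fabp4* at E18.5 was thus lowest in the replicates with adipocyte markers, and without them the difference in log2 ratio was 3.53 instead of 5.22.

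The subunits of the trifunctional protein had a narrow ratio. *Hadha* to *Hadhb* ranged from 0.458 to 0.835 over the 12 libraries, while *Hadhb* itself ranged from 98.9 to 746 CPM. The ratio was 0.835, 0.758, 0.707 and 0.7 at 2 wks, then 0.547, 0.551, 0.624 and 0.575 at 7 wks, without overlap (exact permutation p = 0.0286, adjusted p = 0.2). The subunits of the electron transfer flavoprotein, by contrast, had *Etfa* at 13.4 to 90.6 times *Etfb*, with the limits on the *Etfb* count given above.

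**Figure D4:**
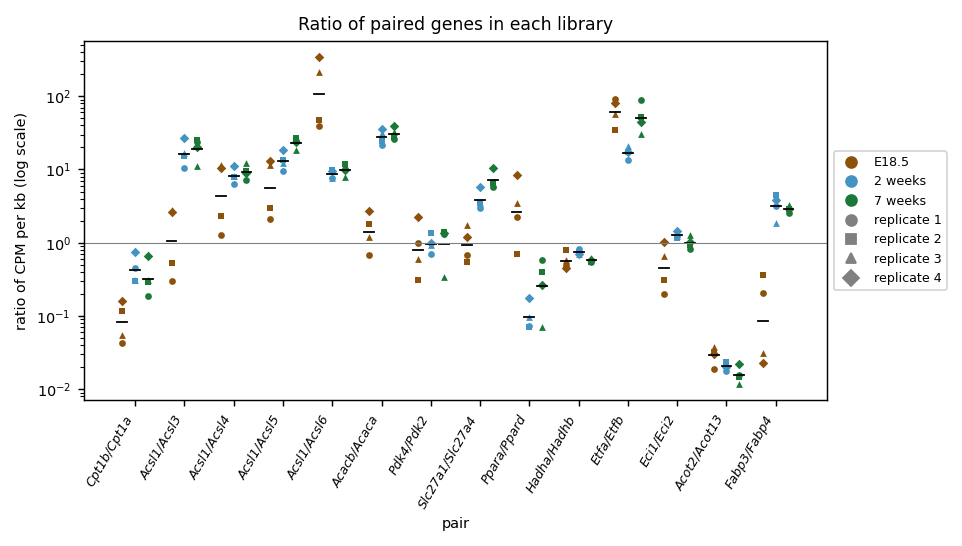
Ratio of CPM per kb (log axis) of 14 gene pairs in each library, colored by age, with symbols for replicate numbers and black bars for the geometric mean of 4 libraries. *Acacb*/*Acaca*, *Acsl1*/*Acsl3* and *Fabp3*/*Fabp4* move up after E18.5, *Acsl1*/*Acsl6* and *Ppara*/*Ppard* move down, and *Hadha*/*Hadhb* stays between 0.458 and 0.835.

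Within families, expressed as shares of the summed CPM per kb, the division among genes differed between E18.5 and later ages. *Acsl3* held 59.1%, 51.2%, 23.1% and 24.5% of the acyl-CoA synthetase sum at E18.5, 2.87% to 6.43% at 2 wks, then 3.12% to 6.57% at 7 wks. *Acsl1* held 17.9%, 27.2%, 65.1% and 64.3% at E18.5, 67.1% to 77.9% at 2 wks, then 74.1% to 79% at 7 wks. The E18.5 replicates with adipocyte markers were thus close to the later ages in the share of *Acsl1*. *Acsl6* held 0.188% to 0.575% of the same sum at E18.5 and 7.44% to 9.28% at 2 wks, with no overlap.

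Among pyruvate dehydrogenase kinases, *Pdk1* held 33.8%, 26.6%, 25.9% and 18.6% at E18.5 and 1.9% to 3.02% at 2 wks, and *Pdk3* held 4.83% to 19.4% at E18.5 and at most 0.603% later. *Pdk2* and *Pdk4* held the remainder, with *Pdk2* at 72.4% in 7-wk replicate 3 and at 40.3% to 41.5% in the other 7-wk libraries. Among the PPAR receptors, *Ppard* held 21.5%, 44.1%, 6.34% and 4.56% at E18.5 and 72.1% to 82.2% at 2 wks, while *Pparg*, the receptor of adipocyte formation, held 30%, 24.9%, 71.2% and 56.5% at E18.5 and 11.9% to 20.9% at 2 wks.

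**Figure D5:**
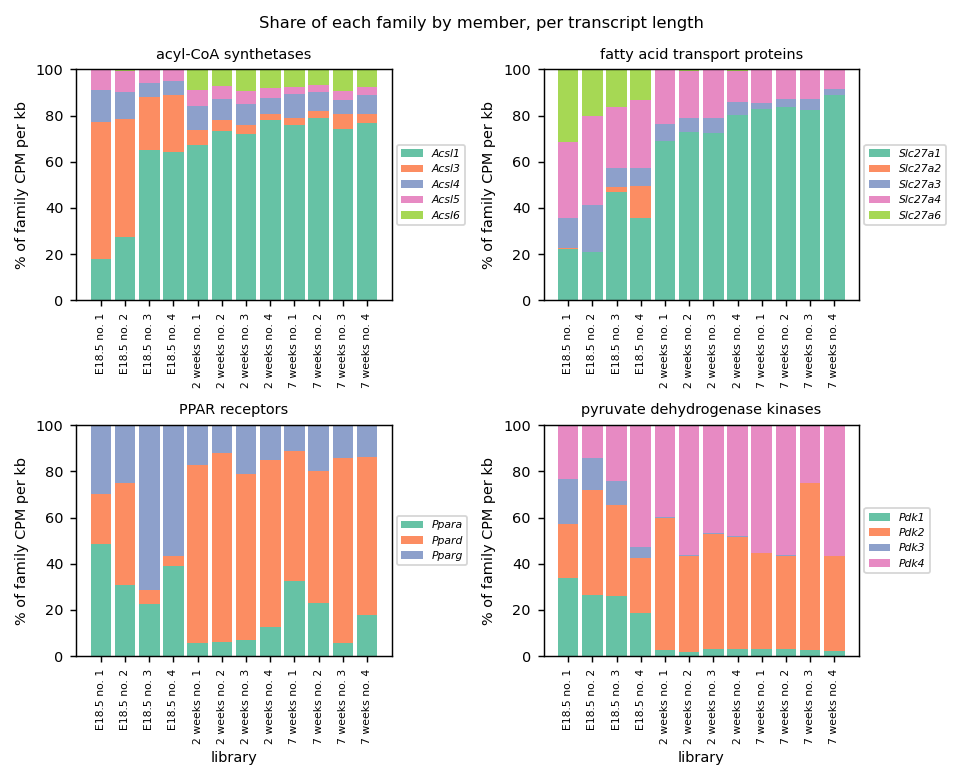
Share of each gene in the summed CPM per kb of its family (0 to 100%) in each library, for acyl-CoA synthetases, fatty acid transport proteins, PPAR receptors and pyruvate dehydrogenase kinases. *Acsl3* holds 23.1% to 59.1% in the E18.5 libraries and at most 6.57% later, and *Slc27a6* shrinks from 13% to 31.6% at E18.5 to at most 0.571%.

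Per length, the order of levels also changed. At E18.5 the highest means were those of *Etfa* (167 ± 135 CPM per kb, SD, n = 4), *Hadhb* (159.5 ± 145), *Acadm* (145 ± 107), *Acaa2* (143 ± 122) and *Lpl* (143 ± 92.9). Their SDs were larger than the differences between these means. In each of these genes E18.5 replicates 3 and 4 exceeded replicates 1 and 2, and no order was made without them. At 2 wks *Fabp3* led with 1067 ± 318 CPM per kb, followed by *Acadvl* (323 ± 56.4), *Acadm* (235 ± 56.2) and *Acaa2* (226 ± 30.3). At 7 wks *Fabp3* (787 ± 173), *Acadvl* (403 ± 48.6) and *Acadm* (366 ± 23.5) were again the highest 3. *Cpt1b* and *Acot2* were near the bottom of the order at every age, with means of 0.306 to 2.00 and 1.09 to 3.11 CPM per kb.

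Neighboring pathways were described by further lists of 85 genes, to be read against the 31.5% of all genes called as higher and 34.2% as lower between E18.5 and 2 wks, and 13.5% and 13.9% between 2 and 7 wks. All 10 genes of fatty acid synthesis fell between E18.5 and 2 wks, under both scalings and with or without E18.5 replicates 3 and 4 (median log2 change -1.80). The desaturase *Scd1* fell by 3.72 (SE 0.63, edgeR, adjusted p = 0.000154), from 72.6, 70.3, 649 and 445 CPM to 19.5 to 27.5, or by 1.61 without E18.5 replicates 3 and 4, and the elongase *Elovl6* by 3.57 (SE 0.32, adjusted p = 9.47e-07). From 2 to 7 wks 4 of the 10 fell further, among them *Elovl6* by 1.24 and the desaturase *Fads2* by 0.83 (adjusted p = 0.00965 and 0.0102). Of 16 TCA cycle genes 15 rose (median 1.48), led by *Mdh2* (3.04 ± 0.28, adjusted p = 1.2e-06) and *Sdhb* (2.86 ± 0.31, adjusted p = 3.79e-06), and 16 rose without the 2 libraries, but 7 rose and 1 fell under total count scaling. From 2 to 7 wks *Suclg2* alone rose (0.62, adjusted p = 0.0444), a call that ended in 9 of 12 fits with 1 library left out. 

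Of 7 further uptake genes tested, 2 rose and 2 fell. *Gpihbp1*, which anchors lipoprotein lipase to capillaries, rose by 1.98 ± 0.25 (edgeR, adjusted p = 1.53e-05) and the lipase maturation factor *Lmf1* by 1.44 ± 0.28 (adjusted p = 0.000443), the latter not called under total count scaling (adjusted p = 0.115). *Slc27a6* fell by 3.97 (SE 0.35, adjusted p = 7.31e-07) and *Fabp5* by 1.33 (SE 0.22, adjusted p = 0.000144). Both were called as lower again from 2 to 7 wks, by 1.29 and 1.13 (adjusted p = 0.0255 and 0.00242). The later fall of *Slc27a6* rested on low counts, 10, 34, 20 and 31 at 2 wks, then 11, 8, 4 and 6 at 7 wks. Its CPM overlapped between these ages, and the call ended in 5 of 12 fits with 1 library left out. Of 11 lipid droplet genes 4 rose and 1 fell. *Plin5*, which links droplets to mitochondria, rose by 2.56 ± 0.57 (adjusted p = 0.00141; 4.29 without E18.5 replicates 3 and 4) and *Mgll*, the monoglyceride lipase, by 2.15 ± 0.36 (adjusted p = 0.000134), and *Mgll* then fell by 1.06 between 2 and 7 wks (SE 0.34, adjusted p = 0.0345). *Dgat1*, a triglyceride synthase, fell by 1.30 (adjusted p = 0.0135) with E18.5 values of 11.8, 14.5, 55.2 and 58.9 CPM, and without the 2 libraries its change was 0.11. *Abhd5*, the activator of triglyceride lipase, rose by 0.99 from 2 to 7 wks (adjusted p = 0.041). With each library left out in turn, the later call of *Mgll* ended in 8 of 12 fits and that of *Abhd5* in 7.

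Of 12 peroxisomal genes, 5 rose and 3 fell by 2 wks, a share near the 65.7% of all genes called. The transporter *Abcd2* rose by 2.04 ± 0.32 (edgeR, adjusted p = 8.28e-05), whereas *Acaa1b* and the reductase *Decr2* fell by 3.72 and 1.18 (adjusted p = 0.00199 and 7.55e-06). The fall of *Acaa1b* was not called without E18.5 replicates 3 and 4 (-1.39, adjusted p = 0.105). Between 2 and 7 wks *Abcd3* rose by 0.64 and *Decr2* fell by 0.67 (adjusted p = 0.0309 and 0.0033). The call of *Abcd3* ended in 5 of 12 fits with 1 library left out, and that of *Decr2* in 0. Of 10 further mitochondrial genes, 2 rose and 2 fell by 2 wks. *Acad11*, an acyl-CoA dehydrogenase, and the carnitine carrier *Slc25a20* rose by 1.42 ± 0.33 and 1.08 ± 0.45 (adjusted p = 0.00195 and 0.0455), neither of them called under total count scaling (adjusted p = 0.187 and 0.755), and by 2.34 and 2.53 without E18.5 replicates 3 and 4. The thioesterases *Acot1* and *Acot11* fell by 1.38 and 0.76 (adjusted p = 0.00663 and 0.00715), and *Acot1* was not called without E18.5 replicates 3 and 4 (adjusted p = 0.0563). From 2 to 7 wks 3 genes of this list rose, among them *Acad11* by 1.0 and *Acadsb* by 0.73 (adjusted p = 0.0368 and 0.00753). The call of *Acad11* ended in 7 of 12 fits with 1 library left out, and that of *Acadsb* in 0.

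Of 5 genes of ketone body use, 1 rose by 2 wks and 3 rose between 2 and 7 wks. *Bdh1*, the hydroxybutyrate dehydrogenase, was at 0.88, 1.12, 0.824 and 0.608 CPM at E18.5, 0.285, 0.144, 0.794 and 3.87 at 2 wks, then 28.1, 62.2, 64.2 and 32.8 at 7 wks. All 7-wk libraries stood far above the rest, with a rise of 5.20 ± 0.79 from 2 to 7 wks (adjusted p = 0.000473). *Oxct1*, which activates ketone bodies, rose by 1.22 ± 0.29 over the same interval (adjusted p = 0.00825). Of 13 further regulators, 6 rose and 4 fell by 2 wks and 7 rose and 1 fell from 2 to 7 wks. *Esrra*, the estrogen-related receptor, rose by 2.58 ± 0.33 by 2 wks (adjusted p = 1.85e-05) and the kinase subunit *Prkaa2* by 1.62 ± 0.27 (adjusted p = 0.000122), while *Rxra*, the partner of the PPARs, and *Esrrb* rose by 1.25 ± 0.26 and 1.46 ± 0.33 from 2 to 7 wks (adjusted p = 0.00345 and 0.00539). *Pparg* fell by 2.70 by 2 wks (adjusted p = 0.0052) with all libraries, and its change was 0.23 without E18.5 replicates 3 and 4. The kinase *Pdk3* fell by 2.36 and then by 1.23 (adjusted p = 1.3e-06 and 0.00142).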

How the data were processed

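Polyadenylated RNA of TA pieces from 12 WT mice was sequenced as stranded paired-end libraries. The authors deposited raw read counts per Ensembl gene, made, per the labels, with bcl2fastq 2.17.1.14, cutadapt 1.10, STAR 2.5.3a and HTSeq 0.6.1p1. The notes name the build mm10 and the methods GRCm39, and the strand setting and annotation were not given in the sources used here. Symbols came from GENCODE vM39 for 51477 of 55450 IDs; the other 3973 held 0.0394% of counts.

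Counts were tested with edgeR 4.0.16 (R 4.3.3, limma 3.58.1): TMM scaling, filterByExpr (19276 genes tested, 36174 removed), quasi-likelihood F-test on age over all 12 libraries, Benjamini-Hochberg adjustment over all genes tested and a threshold of 0.05. The biological coefficient of variation was 0.279. Levels are TMM-scaled CPM, per kb of the Ensembl canonical transcript where genes are compared. Ratios of 14 gene pairs were tested with exact permutation tests in Python 3.11.15 (scipy 1.17.1). The test code was checked on simulated data.

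The members and lists were chosen with earlier results of these data known. All 39 members may be named. Values in every library are given for the largest rise and fall past the threshold in each role group and interval and for described pairs, and of each further list the 2 largest rises and 2 largest falls are named, except some that are not reported here. Alternatives covered scaling, DESeq2 1.42.0, filters, a replicate block, GC and length trends, a fold threshold, the libraries fitted and each library left out. Leaving out E18.5 replicates 3 and 4 was chosen after seeing the data. No pair of libraries of the same age was a copy (chi-square per degree of freedom 34.3 to 577 in 18 pairs).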

Additional observations from a re-analysis of the deposited data

Results flagged for a closer look

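In 7 of 117 sets of 4 libraries of an age (39 genes at 3 ages), the highest or lowest library lay far from the other 3, where chance gives about 5.85 such sets at 1 in 20. Replicate 4 of the 2-wk group was low for *Acsl3*, at 10.4 CPM against 14.9 to 15.8, and high for *Ppara*, at 7.89 against 2.67 to 3.31. For *Hadhb*, 7-wk replicate 2 was at 691 CPM against 599 to 605. E18.5 replicate 1 was low for *Acaa1a*, at 16 CPM against 30.5 to 32.8, and for *Mlycd*, at 3.76 against 8.97 to 9.64. *Mlycd* was also low in 2-wk replicate 3, at 65.6 CPM against 88.9 to 92.9. *Pdk4* was at 328 CPM in E18.5 replicate 4, the library with the highest *Ucp1* (923 CPM), against 34.8 to 66.7.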

How the results depend on the processing

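Counts of called genes kept within 1.5 times of the 25 (E18.5 to 2 wks), 27 (whole period) and 18 (difference of intervals) under the alternatives run, other than those given next. Against a log2 change beyond 1 they were 16, 14 and 11, and without E18.5 replicates 3 and 4 the last was 31, or 28 with total count scaling. Leaving out each library gave 23 to 33 (lowest without E18.5 replicate 1, highest without E18.5 replicate 4), 23 to 34 (without E18.5 replicate 2 and 4) and 14 to 24 (without 2-wk replicate 4 and E18.5 replicate 4). The 1 call from 2 to 7 wks was not stable. It became 6 under total count scaling, 5 under total count without the 20 most abundant and 37 mitochondrially encoded genes, 0 with DESeq2 size factors, with no filter, with at least 10 counts in every library or beyond a log2 change of 1, 3 in DESeq2, 11 with only the libraries of both ages, 5 with the GC trend and 3 with the length trend removed, 7 without E18.5 replicates 3 and 4, 8 with total count scaling too, and 0 to 5 with each library left out (5 without E18.5 replicate 1). Correlations between libraries of different ages were -0.258 to 0.436 over 12 same-numbered pairs and -0.424 to 0.325 over 36 other pairs. The highest was between E18.5 replicate 1 and 7-wk replicate 1. As the ranges overlapped, replicate numbers were not taken to pair the libraries. With a replicate block 5 genes were called from 2 to 7 wks.

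Among the 39 genes and the further genes named for the interval, signs turned for some genes called in either of the fits compared. From E18.5 to 2 wks these were *Slc27a4* (-0.30), *Hadh* (-0.03) and *Eci2* (-0.28) under total count scaling, *Eci2* with the length trend removed (-0.13), *Lpl* (0.67), *Etfa* (1.10), *Dgat1* (0.11) and *Pparg* (0.23) without E18.5 replicates 3 and 4, and *Slc27a4* (-0.21) with both. Over the whole period these were, under total count scaling, *Cd36* (-0.46), *Slc27a4* (-1.09), *Acsl4* (-1.10), *Acadl* (-0.29), *Hadha* (-0.19), *Hadh* (-0.43), *Acaa1a* (-0.24), *Eci2* (-0.53) and *Etfa* (-1.03), without abundant genes *Slc27a4* (-0.57) and *Eci2* (-0.01), and under total count scaling without E18.5 replicates 3 and 4 *Slc27a4* (-1.0), *Acsl4* (-1.29), *Acaa1a* (-0.00) and *Eci2* (-0.11). With the GC trend removed, the rises by 2 wks of *Slc27a4*, *Cpt2*, *Acadvl*, *Hadh*, *Acaa1a* and *Etfb* were not called (0.22, 0.74, 0.82, 0.78, 0.06 and 0.91), *Cd36*, *Acadl* and *Decr1* were called as higher, and *Crat*, *Acads*, *Mlycd*, *Acacb*, *Pdk2*, *Ppard*, *Plin5* and *Esrra* were still called with smaller rises (1.22, 1.15, 2.24, 1.29, 1.87, 0.91, 1.28 and 1.08). The cause was not tested.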
